A study of Gallus gallus with 31 samples.

Results

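The anterior pituitary of the High Growth (HG) and the Low Growth (LG) chicken line was compared at 7 weeks after hatch, the oldest of the 4 ages collected. Birds were chosen by line and age label, which gave 4 HG week 7 arrays and 4 LG week 7 arrays, 8 of the 31 arrays analysed, with 1 bird on each array. All birds were male Gallus gallus kept under standard broiler conditions, and the 2 lines were bred apart by selection on body weight. Chicks of the lines were kept apart for the first 3 weeks and shared pens afterwards, by the study's methods. Each group is 1 line, so the line difference cannot be told apart from any other difference in ancestry or in early rearing. Pituitary RNA was amplified before labeling, bird cDNA carried Cy3 and a pool of all birds carried Cy5, and no dye was swapped. Each value below is therefore a log2 ratio of a bird to that pool, and each difference is the HG mean less the LG mean of those log2 ratios, so that a positive one means more transcript in HG birds.

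The anterior pituitary secretes growth hormone, prolactin, corticotropin, thyrotropin and the gonadotropins, and so sets growth, metabolism and reproduction through other glands. Thyrotropin, luteinizing hormone and follicle-stimulating hormone each pair a common alpha subunit with a beta subunit of their own. The gland also holds blood vessels, connective tissue, supporting cells and immune cells, whose RNA is extracted with that of the endocrine cells.

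Spots that were not flagged numbered 16211 to 18342 on the HG week 7 arrays and 16381 to 17505 on the LG week 7 arrays, of 19200 printed. The median Cy3 signal was 3.83 to 4.58 times local background in HG birds and 3.76 to 6.23 times in LG birds. Hormone transcripts gave signal in both lines: LHB, TSHB, CGA and PRL reached 2 times their local Cy3 background on 4 of 4 HG arrays and 4 of 4 LG arrays. FSHB did so on 3 of 4 in HG and 3 of 4 in LG. From 13883 to 16176 of the 19200 printed spots reached that level on a week 7 array, so it does not mark the tissue. With 4 birds a group the number of arrays limits the precision, and the median standard error of a difference was 0.204.

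Few single transcripts separated the lines at this age. Of 16897 spots tested, 5 passed an adjusted p of 0.05 in limma's moderated test, 1 higher in HG (0.00592% of spots) and 4 higher in LG (0.0237%). At an unadjusted p of 0.05 there were 383 spots toward HG (2.27%) and 481 toward LG (2.85%). The split of calls by direction was not stable: loess within print blocks gave 4 toward HG and 3 toward LG, and array weights 14 and 13. The median difference of all spots was -0.0017, and 8384 of the 16897 had a positive difference, the background for the sign counts of gene lists below. Among the 12723 spots with a value for all 8 birds, every HG bird lay above every LG bird at 255 (2%) and below at 284 (2.23%).

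**Figure D1:**
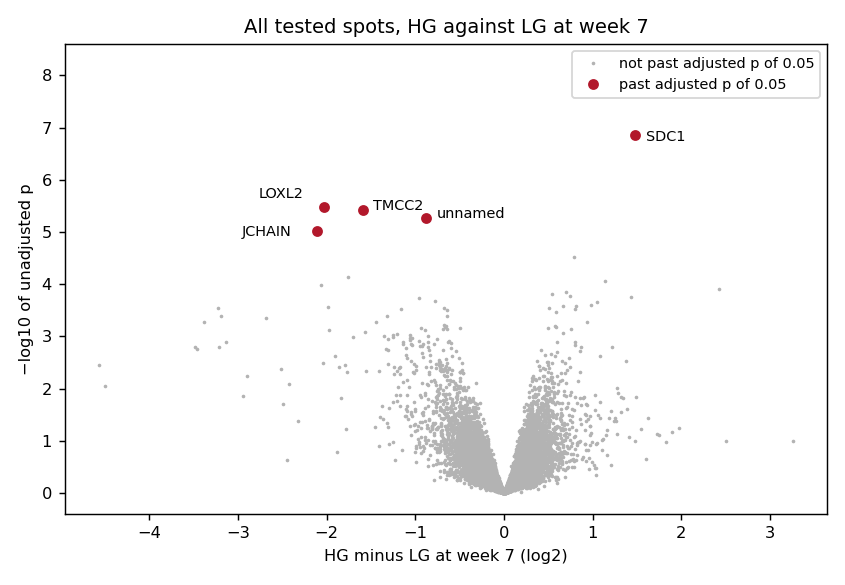
HG minus LG difference at week 7 (x axis, log2) against the -log10 of the unadjusted p (y axis) for the 16897 tested spots, 1 point each. The 5 spots past an adjusted p of 0.05 are large and named; SDC1 stands alone on the HG side and 4 spots on the LG side.

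SDC1 was higher in HG birds. It encodes syndecan-1, a heparan sulfate proteoglycan of the cell surface that binds growth factors and matrix proteins. SDC1 (spot 24.11.6) stood at 1.05, 0.35, 0.97 and 0.67 in the 4 HG birds, against -0.42, -0.73, -0.94 and -0.80 in the 4 LG birds. The groups did not overlap, and the lowest HG bird lay above the highest LG bird. The difference was 1.48 (standard error 0.21), a 2.79-fold ratio, with an adjusted p of 0.0024. SDC1 kept its call without any single array and under each other setting of the processing, and stood at an adjusted p of 0.0532 without replicate 4 of both lines.

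LOXL2, JCHAIN, TMCC2 and a spot with no gene name were higher in LG birds. LOXL2, a lysyl oxidase that crosslinks collagen and elastin, stood at -0.77, -0.32, -0.58 and -0.71 in HG birds, against 1.80, 0.13, 1.65 and 2.15 in LG birds (spot 27.17.17). The HG birds lay close together while LG replicate 2 lay far below the other LG birds and still above every HG bird. The difference of -2.03 (standard error 0.35, adjusted p = 0.0212) is a 4.08-fold ratio. LOXL2 passed in 14 of 16 other settings of the processing, with adjusted p up to 0.22. Spot 27.17.17 has no name in the platform annotation, and the name LOXL2 comes from the study's list, chosen on these arrays.

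JCHAIN encodes the joining chain of polymeric immunoglobulin and is made by plasma cells. It stood at -0.93, -0.47, -0.76 and -0.91 in HG birds, against 1.48, 0.83, 1.17 and 1.86 in LG birds (spot 3.1.3). Again LG replicate 2 was the lowest of its line, and the lines did not overlap. The difference was -2.10 (standard error 0.38, adjusted p = 0.032), a 4.3-fold ratio. JCHAIN passed in 12 of 16 other settings, with adjusted p up to 0.0937.

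TMCC2, a transmembrane protein with coiled coils, stood at -0.34, -0.26, -0.36 and -0.44 in HG birds, against 1.15, 1.29 and 1.30 in LG replicates 1, 3 and 4 (spot 39.7.2). LG replicate 2 had no usable value there, so its level in the bird that was lowest for LOXL2 and JCHAIN is not known. The difference was -1.59 (standard error 0.26, adjusted p = 0.0212), and it passed in 10 of 12 other settings, with adjusted p up to 0.289. Another TMCC2 spot, 16.5.13, differed by -1.97 (standard error 0.51, adjusted p = 0.266), with LG replicate 2 at -0.22 beside 1.01, 1.63 and 1.69 in the other LG birds, and the last TMCC2 spot by 0.14. The unnamed spot 23.2.11 had 3 HG values between -0.31 and -0.25, against 4 LG values between 0.42 and 0.79, a difference of -0.88 (standard error 0.15, adjusted p = 0.0227). The 4 calls toward LG were each lost when HG replicate 3 or 4, or LG replicate 1, 3 or 4, was left out, which left SDC1 as the 1 call. Without HG replicate 1, 2 spots passed, and without HG replicate 2, 4 passed.

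**Figure D2:**
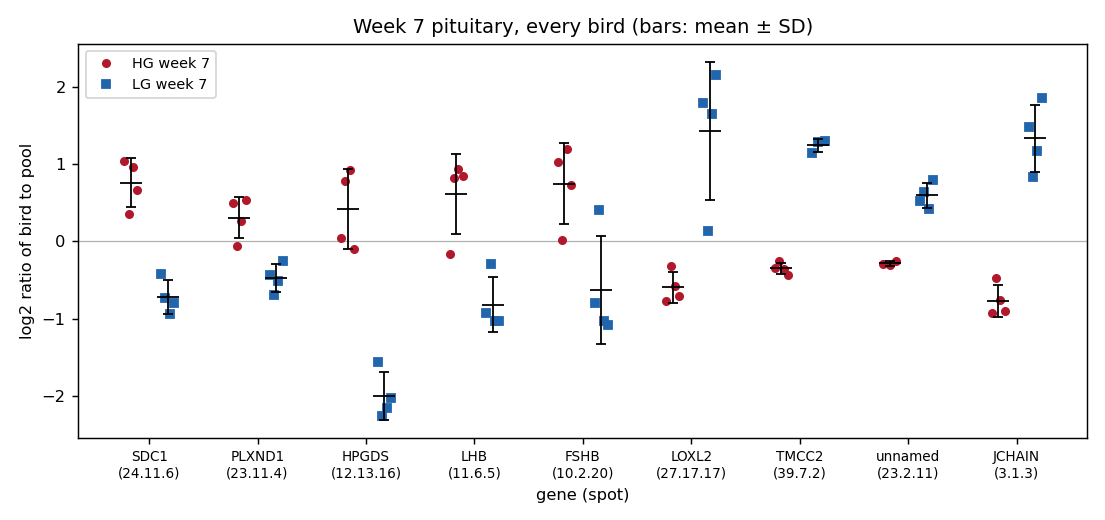
Log2 ratio of each week 7 bird to the pool (y axis) for 9 spots (x axis), HG as circles to the left and LG as squares to the right of each position, with the mean and SD of each line as a bar. SDC1, LOXL2, TMCC2, the unnamed spot and JCHAIN passed the test; PLXND1, HPGDS, LHB and FSHB did not.

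The 15 named spots of smallest p toward HG had differences of 0.51 to 2.42 and were led, after SDC1, by PLXND1, a receptor for class 3 semaphorins that guide vessels and axons. PLXND1 (spot 23.11.4) stood at 0.50, -0.06, 0.27 and 0.53 in HG birds, against -0.43, -0.70, -0.52 and -0.25 in LG birds, a difference of 0.78 (standard error 0.16, adjusted p = 0.0843). Spot 23.11.4 has no name in the platform annotation and owes it to the study's list, chosen on these arrays. The other 3 PLXND1 spots, named so by the platform annotation, lay between -0.03 and 0.01. SEMA3C, a secreted class 3 semaphorin, had a difference of 1.05 (standard error 0.25, adjusted p = 0.195), with 0.32, 0.77, 0.75 and -0.32 in HG birds, against -0.89, -0.75, -0.39 and -0.65 in LG birds. The lines did not overlap at spot 23.11.4 or for SEMA3C, and neither passed the test.

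HPGDS had the widest difference of these spots. It encodes hematopoietic prostaglandin D synthase, which makes prostaglandin D2. HPGDS stood at 0.05, 0.78, 0.93 and -0.10 in HG birds, against -1.57, -2.26, -2.16 and -2.04 in LG birds, a difference of 2.42 (standard error 0.54, adjusted p = 0.195). All HG birds lay above all LG birds, with the largest standard error among the 15.

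Other spots of the 15 belonged to matrix, cytoskeleton, lipid and protein folding genes. MXRA7, named for matrix remodeling, was printed at 2 of them, with differences of 1.14 (standard error 0.25) and 0.80 (standard error 0.19). Those 2 owe the name to the study's list alone, and the last MXRA7 spot, named by the platform annotation, lay at -0.33. CALD1, the actin-binding protein caldesmon, differed by 0.70 (standard error 0.16) at spot 24.7.14, but by -0.66 (standard error 0.25) at spot 23.3.5 and by 0.36 at its last spot. COL4A2, a chain of basement membrane collagen, differed by 0.55 (standard error 0.12) at 1 spot and by 0.20 and -0.07 at its others. HSD17B12, an enzyme of fatty acid elongation, differed by 0.74 (standard error 0.17), and TAT, which degrades tyrosine and is a classical glucocorticoid target in liver, by 0.99 (standard error 0.23). HYOU1, a chaperone of the endoplasmic reticulum, differed by 0.67 at spot 40.9.2 and by 0.10 and 0.01 at its other 2 spots. TMEM63C, a membrane channel protein, differed by 0.81 at 1 spot, named by the study's list alone. At the other 4, named by the platform annotation, the differences were -0.25 to 0.12. CDC25A, a phosphatase that drives the cell cycle, differed by 0.51, and by -0.08 to 0.60 at its other 3 spots. Spot 26.13.1 differed by 0.57; the study calls it C10orf58 and the platform annotation PRXL2A. None of these passed, with adjusted p between 0.186 and 0.266. All 15 had 8 values without overlap, which follows from taking the smallest p. Of the 14 genes behind them, 8 were also printed at 18 other spots, of which 11 had a positive difference. Of the 18, 1 toward HG and 1 toward LG had an unadjusted p under 0.05, beside 2.27% and 2.85% of all spots. The median of the 18 was 0.0095.

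The 15 named spots of smallest p toward LG had differences between 0.64 and 3.22 in size. Besides LOXL2 and JCHAIN they held VPS37D, a subunit of the endosomal sorting complex, MMP15, a membrane-bound matrix metalloproteinase, EHD3, which shapes endosomal membranes, ADCY2, an adenylyl cyclase that makes cAMP, and MIB2, a ubiquitin ligase of Notch signaling. VPS37D stood at -0.79, -0.82, -0.60 and -0.87 in HG birds, against 0.89, 0.15, 1.34 and 1.58 in LG birds. EHD3 stood at -0.78, -0.70, -0.70 and -0.69 in HG birds, against 1.23, 0.24, 1.60 and 1.99 in LG birds. ADCY2 stood at -1.02, -1.51, -1.81 and -1.73 in HG birds, against 1.76, -0.05, 2.54 and 2.58 in LG birds. In each of these 3 genes LG replicate 2 was the lowest LG bird.

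The differences were -1.76 (standard error 0.37, adjusted p = 0.177) for VPS37D, -2.07 (standard error 0.45) for MMP15, -1.99 (standard error 0.47) for EHD3, -3.22 (standard error 0.76) for ADCY2 and -1.44 (standard error 0.36, adjusted p = 0.258) for MIB2. MMP15 reached 2 times background on 2 of 4 arrays in HG and 3 of 4 in LG, and ADCY2 on 3 of 4 in HG and 4 of 4 in LG. LG replicate 2 was the lowest LG bird at 9 of the 15 spots, and at 23.8% of all spots with 8 values. EHD3, MMP15 and MIB2 each had 1 other spot, at 0.02, 0.31 and 0.15. The VPS37D spot and the MIB2 spot toward LG owe their names to the study's list alone, and the other MIB2 spot is named by the platform annotation. Without LG replicate 2, 9 spots passed the test in place of 5, 8 of them toward LG.

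AKR1B10, an aldo-keto reductase, stood at -0.92, -0.28, -0.42 and -0.64 in HG birds, against 0.27, 0.34, 0.24 and 0.71 in LG birds at spot 5.17.9, which the platform annotation calls PRKAB1. A further AKR1B10 spot, 32.2.5, stood at -0.72, -0.42, -0.63 and -0.78 in HG birds, against 0.37, 0.11, 0.29 and 0.41 in LG birds. The lines did not overlap at either spot. The 2 remaining AKR1B10 spots differed from these: spot 8.10.8, which the platform annotation calls AKR1B1, by 0.51 (standard error 0.18, adjusted p = 0.642), and the last by -0.10. CRY2, a cryptochrome of the circadian clock, differed by -0.67 (standard error 0.16) and by -0.50 to -0.03 at its other 3 spots. OTOA, known from the inner ear in mammals, differed by -0.78 (standard error 0.18), MARCO, a scavenger receptor of macrophages, by -0.64 (standard error 0.16) and RASD1, a Ras relative induced by dexamethasone, by -1.32 (standard error 0.32). Spot 12.7.14 differed by -1.16 (standard error 0.28) and is MR1, a class I-related antigen-presenting molecule, in the study's naming and COQ10B in the platform annotation. None of these passed. Of the 16 genes toward LG, TMCC2 included, 9 were also printed at 17 other spots, of which 12 had a negative difference. Of these 12, 7 had an unadjusted p under 0.05, beside 2.85% of all spots, and 1 of the 17 had such a p in the opposite direction. The median of the 17 was -0.40. Other spots of IGLL1/IGLL5 and MR1 are in these counts and owe those names to the study's list, chosen on these arrays, so the counts are no independent evidence. The platform annotation gives the IGLL1/IGLL5 spots no name, and calls MR1 spots 8.17.7, 43.1.14 and 41.7.2 BF1, MHCY4 and BF2. TMEM27 did not reach 2 times background on any HG array and did on 2 of 4 LG arrays, so no ratio is given.

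Immunoglobulin transcripts lay toward LG. Of 8 tested spots of B and plasma cell markers, 7 had a negative difference and the median was -0.87, against -0.0017 over all spots. JCHAIN passed the adjusted test, and 4 of 8, JCHAIN and the 3 spots of 1 light chain gene, had an unadjusted p under 0.05, all toward LG, beside the 2.85% of all spots. The 3 spots of the light chain-like IGLL1/IGLL5 differed by -3.19, -1.56 and -3.21 (standard errors 0.78, 0.41 and 0.89). These 3 spots have no name in the platform annotation and owe theirs to the study's list, chosen on these arrays. They were matched to the marker list after the data were seen, so the counts and median that hold them are no independent evidence. At spot 10.1.1 IGLL1/IGLL5 stood at -1.67, -1.26, -1.30 and -1.30 in HG birds, against 1.72, 0.27, 2.34 and 2.91 in LG birds.

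Heavy chain spots also joined the list only after the data were seen. Unlike the light chain spots, they enter none of these counts and are given as values. IGHA, of the alpha heavy chain, stood at -2.21, -3.45, -2.05 and -2.34 in HG birds, against 1.42, -2.84, 2.64 and 2.61 in LG birds, so that LG replicate 2 lay among the HG birds and the other LG birds far above. The 2 IGHV spots, of heavy chain variable regions, differed by -2.04 (standard error 0.63) and -2.43 (standard error 0.85). The B cell regulators BCL6, at 3 spots, and IRF4 had differences between -0.18 and 0.02. Taken bird by bird, the median of the 8 spots lay between -0.97 and -0.24 in HG and between 0.21 and 1.18 in LG. With the 3 heavy chain spots the list's median would be -2.04, and 7 of 11 spots would have an unadjusted p under 0.05. In whole glands, fewer cells of a type and less RNA per cell cannot be told apart.

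Red cell transcripts, which come with any blood left in the gland, also lay toward LG in value. At spot 25.9.5 HBE1, a beta-like hemoglobin, stood at -1.41, -1.12, -1.72 and -2.70 in HG birds, against 0.64, 1.47 and 0.73 in LG replicates 1, 3 and 4, with no usable value in LG replicate 2. HBA1/HBA2, the alpha hemoglobins, at spot 40.7.18 stood at -0.88, -1.12, -0.93 and -1.51 in HG birds, against 0.44, -1.29, 1.15 and 0.13 in LG birds. LG replicate 2 lay among the HG birds at that spot. Of 8 tested red cell marker spots, 7 were negative and none passed the adjusted test. An unadjusted p under 0.05 was found at 4 of the 8, all hemoglobin spots toward LG, beside 2.85% of all spots. Spots 25.9.5 and 40.7.18 have no name in the platform annotation and owe theirs to the study's list, chosen on these arrays. HBA1/HBA2 spots were matched to the marker list after the data were seen. The median of the marker list was -0.59, and its level per bird was -0.71 to -0.43 in HG, against -0.31 to 0.41 in LG. At weeks 1, 3 and 5 the same median was 0.50, 0.27 and 0.44. The part of blood or immune cell RNA in the other LG-side differences was not tested.

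**Figure D3:**
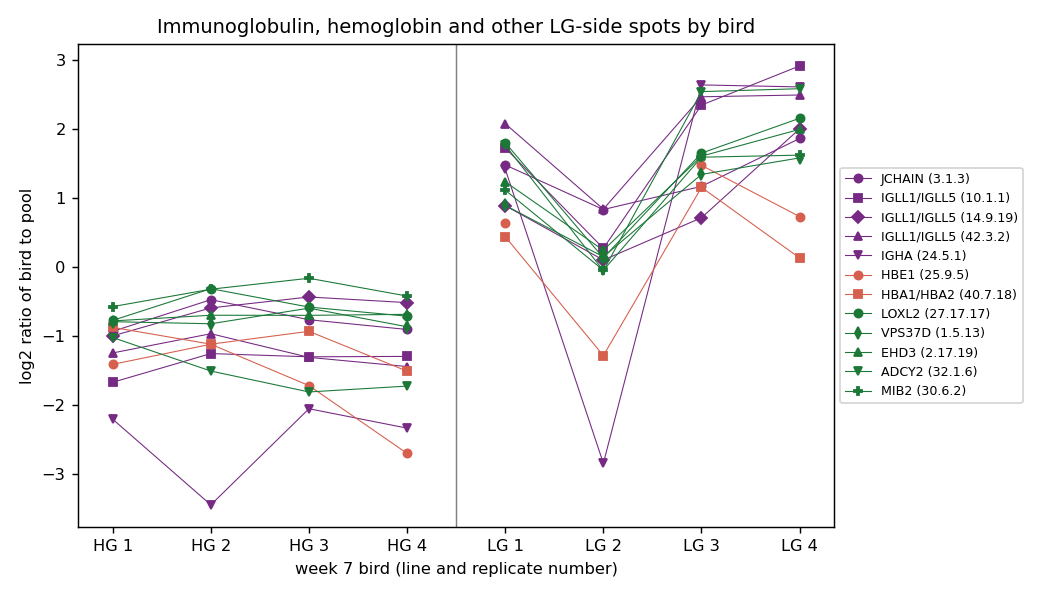
Log2 ratio to the pool (y axis) in each week 7 bird (x axis, HG birds 1 to 4, then LG birds 1 to 4) for 5 immunoglobulin spots (purple), 2 hemoglobin spots (red) and 5 other spots toward LG (green). LG replicates 1, 3 and 4 lie high and LG replicate 2 lies lower for each spot that has a value in it; points are joined within a line only to guide the eye.

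Marker lists of other cells had medians nearer 0. Of 26 macrophage and granulocyte spots, 22 were negative with a median of -0.19. Of the 26, 3 had an unadjusted p under 0.05, all toward LG, beside 2.85% of all spots. Of 14 spots of glia and posterior pituitary, 12 were negative with a median of -0.16. In that list 3 of 14 had an unadjusted p under 0.05, all toward LG, beside 2.85% of all spots. They were S100B, SOX10 and GFAP, glial genes, at differences between -0.78 and -0.72, with another SOX10 spot at -0.07 and another GFAP spot at -0.16. The S100B difference was -0.31 without LG replicate 2. Of 7 spots of pars tuberalis and folliculostellate cells, 6 were negative with a median of -0.17. In that list too S100B was the 1 spot with an unadjusted p under 0.05, so it does not mark glia alone. The 5 T cell spots had a median of -0.15 and none had an unadjusted p under 0.05, nor did any of 8 adipocyte spots. The 18 skeletal muscle spots had a median of 0.04 and the 13 spots of neurons, hypothalamus, retina and pineal gland one of 0.08. Each had 1 spot toward HG at an unadjusted p under 0.05, beside 2.27% of all spots. No spot of these lists passed the adjusted test.

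Beta subunits of the glycoprotein hormones lay toward HG, and none passed at this age alone. LHB, of luteinizing hormone, stood at -0.17, 0.82, 0.94 and 0.84 in HG birds, against -0.93, -0.29, -1.03 and -1.03 in LG birds. The difference was 1.43 (standard error 0.33, adjusted p = 0.195), a 2.69-fold ratio, without overlap. FSHB, of follicle-stimulating hormone, stood at 1.04, 0.02, 1.20 and 0.73 in HG birds, against -0.79, 0.41, -1.04 and -1.08 in LG birds, a difference of 1.37 (standard error 0.42, adjusted p = 0.44). LG replicate 2 overlapped the HG range for FSHB and was the highest LG bird for both gonadotropin subunits. TSHB, of thyrotropin, stood at 0.45, 0.71, 0.27 and 0.58 in HG birds, against -0.62, -0.59, 0.20 and 0.21 in LG birds, a difference of 0.70 (standard error 0.27, adjusted p = 0.739). Its lowest HG bird lay just above its highest LG bird.

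The other hormone genes had small or disagreeing differences. The common alpha subunit CGA differed by -0.17 (standard error 0.47), prolactin (PRL) by 0.04 (standard error 0.35) and the neuropeptide NPY by 0.03 (standard error 0.17). POMC, from which corticotropin is cut, differed by -0.08 at both of its spots (standard errors 0.18 and 0.17). The sign of CGA, PRL, POMC, NPY and the GH1 spots 7.1.6 and 43.6.11 turned under another setting or without 1 array. The spots named GH1, for growth hormone, disagreed. Spot 7.1.6 differed by -0.38 (standard error 0.46) and spot 43.6.11 by 0.11 (standard error 0.24), and spot 43.6.9, which the platform annotation assigns to LOC420294, by -1.18 (standard error 0.37, adjusted p = 0.457). Over the 13 hormone list spots, 8 were positive and the median was 0.04. An unadjusted p under 0.05 was found at 4 toward HG and 1 toward LG, beside 2.27% and 2.85% of all spots. The 4 were LHB, FSHB, TSHB and 1 spot of SCG2, a gene also of the secretory granule list, at 0.47, with its other spot at 0.35. The 1 toward LG was spot 43.6.9.

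**Figure D4:**
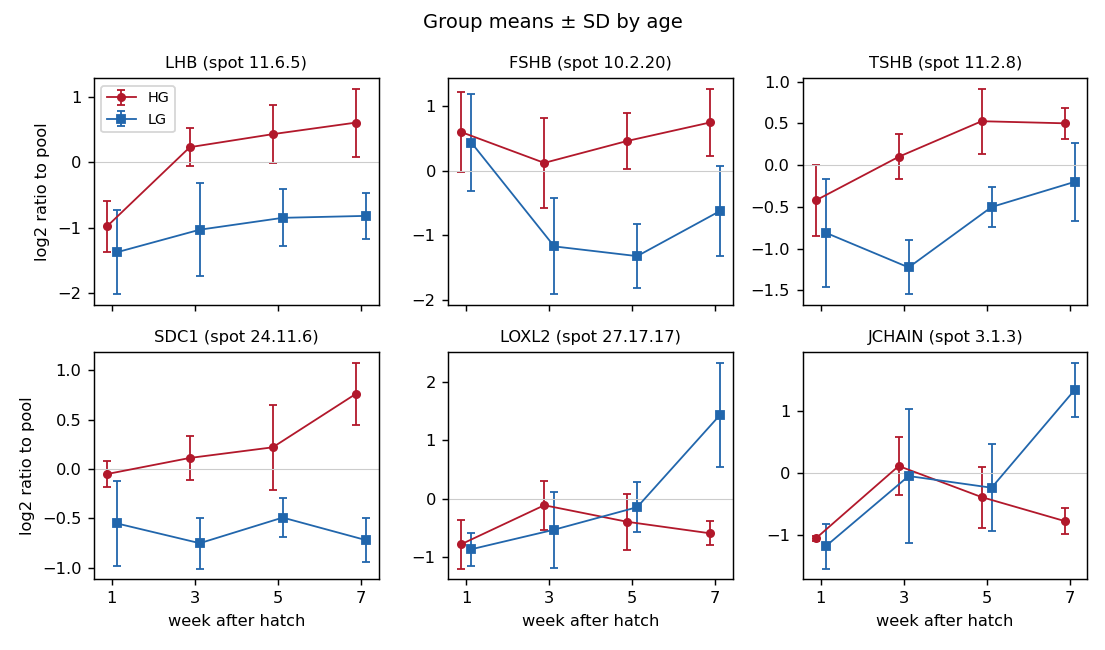
Mean log2 ratio to the pool with SD (y axis) at weeks 1, 3, 5 and 7 (x axis) in HG (circles) and LG (squares), for LHB, FSHB, TSHB, SDC1, LOXL2 and JCHAIN, with 3 or 4 birds a point. At week 7 LOXL2 averages -0.60 in HG and 1.43 in LG, and JCHAIN -0.77 in HG and 1.33 in LG; the SDC1 means lie higher in HG at each age.

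The week 7 difference was set against the mean of the differences at weeks 1, 3 and 5. No spot passed an adjusted p of 0.05 in limma's test of that contrast, where the smallest adjusted p was 0.142, and 419 had an unadjusted p under 0.05 (2.48%). SDC1 had differences of 0.50, 0.86, 0.71 and 1.48 at weeks 1, 3, 5 and 7. LOXL2 had 0.09, 0.42, -0.25 and -2.03, so that week 7 lay -2.11 (standard error 0.40, adjusted p = 0.142) from the earlier mean. JCHAIN had 0.12, 0.16, -0.15 and -2.10, a distance of -2.15 (standard error 0.45, adjusted p = 0.332).

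Hemoglobin and STK10 values lay toward HG at the earlier ages and toward LG at week 7. HBE1 at spot 25.9.5 had differences of 1.16, 0.94, 2.46 and -2.68 at weeks 1, 3, 5 and 7, a distance of -4.20 (standard error 0.76, adjusted p = 0.142), and its other spot, named HBBA in the platform annotation, had 0.77, 0.62, 1.09 and -1.18. STK10, a kinase of lymphocytes, had 1.05, 0.78, 1.80 and -1.86, a distance of -3.07 (standard error 0.68, adjusted p = 0.398), while its other spot differed by 0.14 at week 7. In the other direction the adaptor gene YWHAZ had -0.12, -0.36, -0.30 and 0.49, and the complement gene C4A -0.19, 0.09, 0.06 and 0.59. Of the 15 spots toward HG at week 7, 11, 15 and 15 were positive at weeks 1, 3 and 5, and of the 15 toward LG, 8, 9 and 14 were negative, where 51.3%, 58.2% and 53% of all tested spots had the same sign as at week 7. Several spots in both sets owe their names to the study's list alone. That list was chosen on these arrays over all ages, so the counts are no independent evidence.

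Among 47 spots of endoplasmic reticulum folding genes, 35 were positive, the median was 0.11 and 6 toward HG and 0 toward LG had an unadjusted p under 0.05, beside 2.27% and 2.85% of all spots. HSPA5, the main chaperone of that compartment, stood at 0.12, 0.45, 0.26 and 0.16 in HG birds, against -0.63, -0.43, -0.73 and -0.17 in LG birds, a difference of 0.73 (standard error 0.22, adjusted p = 0.406), and its other spot lay at 0.38. CALR, the chaperone calreticulin, differed by 0.92 (standard error 0.40). The list's median per bird lay between 0.06 and 0.18 in HG and between -0.10 and 0.02 in LG, without overlap. This is not particular to the list. Such medians were also apart for matrix genes, toward HG. Those of glucocorticoid-responsive, glial, red cell, B cell and the 2 ALVE spots, of an endogenous retrovirus, were apart toward LG. With 2 retrovirus spots added to the list after the data were seen, the retrovirus medians overlapped. They were then -3.96 to -0.208 in HG and -0.245 to 0.586 in LG.

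Of 58 spots of extracellular matrix genes, 38 were positive with a median of 0.09. There 8 spots toward HG and 1 toward LG had an unadjusted p under 0.05, beside 2.27% and 2.85% of all spots. That 1 was LOXL2, the sole list member past the adjusted test and named by the study's list alone. COL1A2, a chain of fibrillar collagen, differed by 0.72 (standard error 0.29) and the matrix glycoprotein SPARC by 0.39 (standard error 0.14). Among 40 proteoglycan and sialomucin spots, with SDC1, 20 were positive and the median was -0.02; the small proteoglycan DCN differed by 0.51 (standard error 0.16), and OGN, another small proteoglycan, by -0.72 (standard error 0.23) at 1 spot and -0.60 at its other. SDC2, a syndecan, differed by 0.45 (standard error 0.15) at 1 spot and by -0.06 at its other. Among 37 spots of semaphorins, plexins and guidance genes, 18 were positive with a median of -0.02. SEMA3F differed by -0.60 (standard error 0.28) at 1 spot, named by the study's list alone, and by -0.02 at its other.

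Of 49 spots of antigen presentation genes, 32 were negative, the median was -0.12, and 2 toward HG and 5 toward LG had an unadjusted p under 0.05, beside 2.27% and 2.85% of all spots. Spots of MR1 and MHCY4, class I-related genes, were added to that list after the data were seen and are left out of these counts; with them 8 of 54 lay toward LG at that p. BF1, a class I molecule, stood at -0.34, -0.96, -0.67 and -0.33 in HG birds, against 0.31, 0.40, 0.48 and 0.19 in LG birds, a difference of -0.92 (standard error 0.26, adjusted p = 0.326). Spots called HLA-B, which the platform annotation calls BF1, and HLA-E, which it leaves unnamed, differed by -0.59 (standard error 0.20) and -0.95 (standard error 0.36). BF2, also of class I, was mixed in sign over its spots, from -0.56 to 0.50. Both of these ends had an unadjusted p under 0.05 in limma's test. The interferon response list of 44 spots had a median of -0.10 at week 7 and -0.37 at week 5. Glucocorticoid-responsive genes had a median of -0.14 over 24 spots, with the stress gene DDIT4 at -0.59 (standard error 0.18) and TAT at 0.99.

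The list of cAMP, calcium and MAP kinase signaling had a median of -0.04 over 56 spots, with 1 toward HG and 6 toward LG at an unadjusted p under 0.05, beside 2.27% and 2.85% of all spots. The 1 toward HG was MAP3K7, a kinase activated by TGF-beta, at 0.80 (standard error 0.22), with its other spots at 0.46 and -0.01. The glutamate receptor gene GRIA1, of the receptor list, differed by -0.68 (standard error 0.17, adjusted p = 0.266), and the calcium-dependent membrane-binding gene CPNE1, of the exocytosis list, by -0.65 (standard error 0.20). In the cell cycle list 31 of 44 spots were positive with a median of 0.10. Of the 44, 2 toward HG and 1 toward LG had an unadjusted p under 0.05, beside 2.27% and 2.85% of all spots. The 1 toward LG was TOP2A, a DNA topoisomerase, at -1.02 (standard error 0.32) on spot 27.9.5, against its list, while spot 18.10.4 of TOP2A differed by 0.64 (standard error 0.32) and its last spot by 0.01. Oxidative phosphorylation had 42 of 56 spots positive and a median of 0.06, and cytosolic ribosomal proteins 45 of 65 and 0.07. In the lipid list, 39 of 77 spots were positive. There 5 toward HG and 4 toward LG had an unadjusted p under 0.05, beside 2.27% and 2.85% of all spots. FASN, the fatty acid synthase, differed by 0.47 (standard error 0.18) and by 0.13 at its other spot, and LCAT, of the same list, by -0.68 and -0.61. Of 39 endothelium and angiogenesis spots, 21 were positive with a median of 0.0075. There 2 toward HG and 1 toward LG had an unadjusted p under 0.05, beside 2.27% and 2.85% of all spots. The 2 were EDNRA and the vessel receptor gene FLT1, which the platform annotation calls VEGFRKDRL, at 0.53 (standard error 0.19). The 1 toward LG was a spot of PODXL. None of these spots passed the adjusted test.

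**Figure D5:**
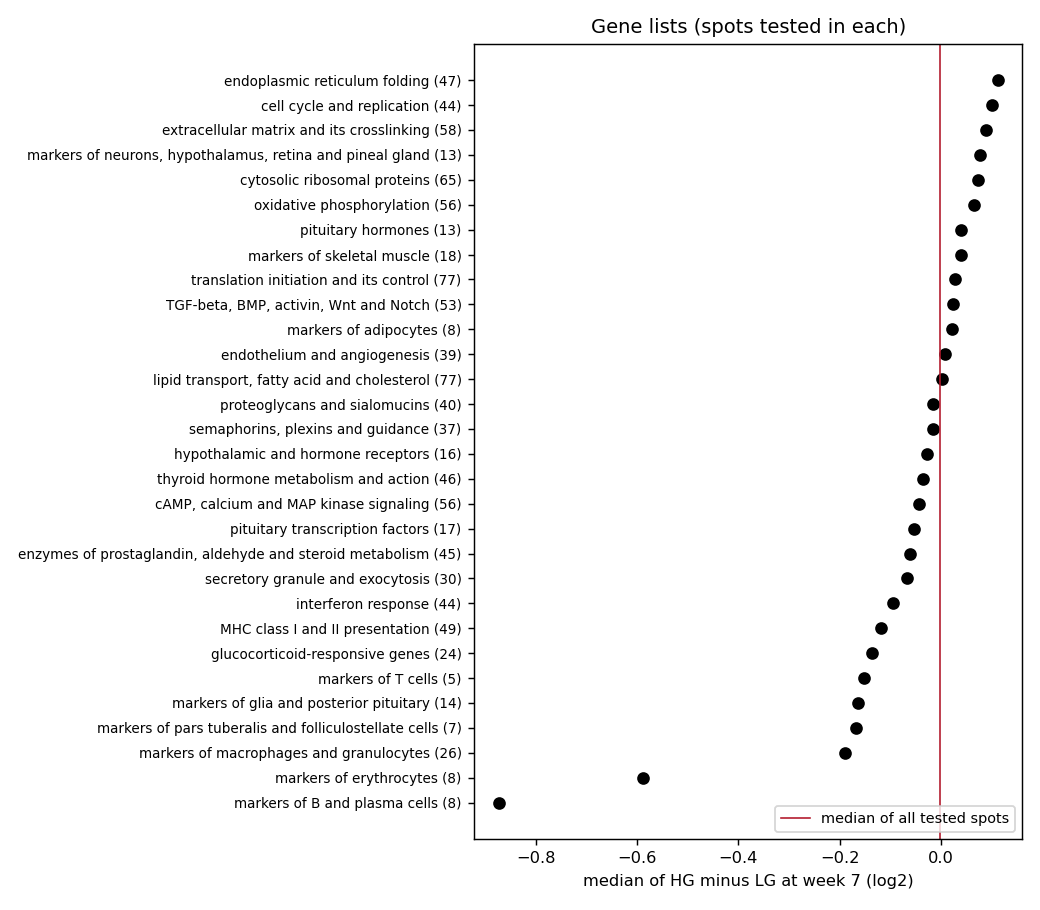
Median HG minus LG difference at week 7 (x axis, log2) of each gene list (y axis, with its number of tested spots), and the median of all tested spots as a vertical line at -0.0017. The B and plasma cell list lies at -0.87 and the red cell list at -0.59; the other lists drawn lie between -0.19 and 0.11. The endogenous retrovirus spots and the genes the study names are not drawn.

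The 2 spots of the endogenous retrovirus ALVE differed widely in value without passing the test. Another 2 retrovirus spots joined the list after the data were seen. Of the 4, 1 was positive, at 0.249, and 3 had an unadjusted p under 0.05 toward LG in limma's test, beside 2.85% of all spots. ALVE, an avian leukosis-type provirus, stood at -5.56, -5.21, -5.12 and -0.91 in HG birds, against 0.80, -0.34, 0.46 and 0.30 in LG birds at spot 47.14.10. HG replicate 4 lay far from the other HG birds. The difference was -4.50 (standard error 1.54, adjusted p = 0.62), and at spot 46.8.10, where replicate 4 of both lines had no usable value, -4.56 (standard error 1.41, adjusted p = 0.457). CDKN1C, an inhibitor of the cell cycle, stood at -0.85, -2.99, -1.65 and -2.11 in HG birds, against 1.49, -2.31, 2.55 and 2.25 in LG birds, a difference of -2.90 (standard error 0.96, adjusted p = 0.512), with LG replicate 2 inside the HG range.

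Of 75 spots of genes that the study's text names, a list chosen on these arrays and so no independent evidence, 46 were negative. An unadjusted p under 0.05 was found at 13 toward HG and 19 toward LG, beside 2.27% and 2.85% of all spots, and 0 passed the adjusted test. The values that the authors deposited after their own normalization and filters gave more calls. There 67 of 9912 spots passed limma's adjusted test, 29 toward HG (0.293%) and 38 toward LG (0.383%). All 67 were among the spots tested above and had the same direction there, 65 of them with an unadjusted p under 0.05. FSHB, at 1.77 (adjusted p = 0.000908), LHB, HSPA5, IGHA, PLXND1 and SEMA3C were among the spots past that threshold in limma's test of the deposited values.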

How the data were processed

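Each bird's cDNA was hybridized with the pool on a spotted cDNA array. Per the file headers, the authors measured spot and background intensity with Spotfinder 2.2.4, then normalized Cy3 to Cy5 by local regression within print blocks (smoothing 0.33) and deposited log2 ratios made with MIDAS 2.18. Here the deposited intensities had their background removed by normexp (offset 50), which shrinks differences of dim spots, then went through array-wise loess; values of flagged spots were left out. A log2 ratio of Cy3 to Cy5 was fitted in limma 3.58.1 (R 4.3.3) with 8 groups of line and age over 31 arrays, and p-values were adjusted by Benjamini-Hochberg. A spot needed values on 16 arrays in all, 2 in each week 7 group and 1 in each other group. On simulated data 27 of 67, 47 of 67 and 64 of 66 spots changed by 0.7, 1 and 2 were called among 16897. The simulation drew independent noise and changed far more spots than passed in the real data, which eases the adjusted threshold. These shares can therefore overstate the power of the week 7 test. Replicates are separate birds.

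Named spots were those past the adjusted p, the 15 named spots with 8 values of smallest p in each direction, 5 in each direction against earlier ages, hormones, up to 4 members of each list, and genes that the study's text names; of these last, those with an unadjusted p above 0.05 are given by counts. Members and lists were chosen with earlier results of these data known, and 5 genes added to lists after the data were seen are left out of the list counts. Spots named HBA1/HBA2 or IGLL1/IGLL5 were matched to the list genes HBA1 and IGLL1 after the data were seen, and stay in the list counts. Gene names came from the study's list, then from the platform annotation with symbols updated through RefSeq. The spots given for SEMA3C, LHB, CALR, GRIA1, DDIT4, CDKN1C and ALVE are also named by the study's list alone. The settings tried are in the closing section. Comparisons printed in the study's tables were not used. The header of the first HG week 1 array names week 3.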

Additional observations from a re-analysis of the deposited data

Results flagged for a closer look

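In 17 of 151 groups of 4 birds, 1 bird lay apart from the others by Dixon's criterion, where chance flags about 1 in 20. HG replicate 1 lay apart at LHB (-0.17, nearest bird 0.82), at MXRA7 spot 31.11.9 (0.15, nearest 0.67), at EHD3 (-0.78, nearest -0.70), at IGLL1/IGLL5 spot 10.1.1 (-1.67, nearest -1.30), at POMC spot 38.5.10 (0.32, nearest 0.03), at FASN (-0.29, nearest 0.12) and at S100B (-0.77, nearest -0.55). HG replicate 2 lay apart at COL1A2 (0.38, nearest -0.01) and HLA-B (-0.57, nearest -0.09), and HG replicate 4 at ALVE spot 47.14.10 (-0.91, nearest -5.12).

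LG replicate 2 lay apart at LHB (-0.29, nearest -0.93), MXRA7 spot 31.11.9 (-0.42, nearest -0.17) and S100B (1.59, nearest -0.11), LG replicate 1 at HYOU1 (-0.40, nearest -0.56), CALR (-1.35, nearest -0.57) and SPARC (-0.55, nearest -0.21), and LG replicate 4 at GRIA1 (0.68, nearest 0.13).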

How the results depend on the processing

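The count of 5 spots past the adjusted p at week 7 was 67 with the deposited values, 27 with array weights, 8 with week 7 arrays alone, 3 with each of median centring, all positive spots whatever their flag, and spots on all 8 week 7 arrays, 2 with the two-way model without moderation, and 864 at unadjusted p. By direction (HG, then LG) the calls were 1 and 4, but 29 and 38 with the deposited values, 14 and 13 with array weights, 4 and 3 with loess within print blocks, and 4 and 4 with the replicate block. Without replicate 4 of week 7 in both lines it was 0. Leaving out 1 array gave 1 to 13, the 13 without LG week 3 replicate 4; at week 7 it was 2 without HG replicate 1, 4 without HG replicate 2, 9 without LG replicate 2 and 1 without any other bird.

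Calls of week 7 against earlier ages numbered 0, but 4 with no background correction, 3 with the deposited values, 3 with array weights, 2 with 1 or more arrays in every group, and 0 to 12 when 1 array was left out (12 again without the LG bird of week 3, 5 without LG replicate 2 of week 7). Calls among list members numbered 3, but 5 with each of no background correction, loess within print blocks, week 7 arrays alone and spots at 2 times background, 23 with the deposited values, 14 with array weights, 1 with the two-way model, 0 without replicate 4 of both lines, and 1 to 5 when 1 array was left out.

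Replicate numbers are not stated to pair birds. Deviations of same-numbered birds from their group means correlated at 0.157, 0.0644, 0.204 and 0.409 over spots, and those of differently numbered birds at -0.24 to 0.161. The log2 ratios of HG and LG replicate 4 correlated at 0.416, the highest of any 2 week 7 arrays. What same-numbered birds share was not tested, and the main fit takes no account of it. With the replicate block, calls numbered 8 at week 7, 0 against earlier ages and 6 among list members, and with the deposited values and the replicate block 100, 3 and 30.

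Over the 83 spots followed through the settings, signs turned only in hormone genes. Other spots whose values are printed beside these, some of them near 0, were not followed. CGA stood at 0.21 with all positive spots, PRL at -0.034 with array weights and at -0.25 without replicate 4 of both lines, POMC spot 37.2.19 at 0.0064 with no background correction and 0.026 with spots at 2 times background, and GH1 spot 43.6.11 at -0.039 without replicate 4 of both lines. Leaving out 1 array gave -0.64 to 0.047 for GH1 spot 7.1.6, -0.058 to 0.22 for GH1 spot 43.6.11, -0.44 to 0.25 for CGA, -0.22 to 0.20 for PRL, -0.21 to 0.011 for POMC spot 38.5.10, -0.24 to 0.045 for POMC spot 37.2.19 and -0.070 to 0.12 for NPY. SDC1 passed in 16 of 16 settings, LOXL2 in 14 of 16, the unnamed spot in 13 of 15, JCHAIN in 12 of 16 and TMCC2 in 10 of 12. The causes were not tested. Leaving out both replicates 4, the limit of 2 times background and the block on deposited values were chosen after seeing the data, as was leaving 5 late genes out of the lists.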
